A study of Rattus norvegicus with 6 samples.

Results

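The vacuolar proton pump (V-ATPase) and the proteins of the lysosome were examined in the kidneys of congenic and Dahl salt-sensitive (S) rats. The members were 34 genes, 17 of the pump and 17 of the lysosome, and each was measured by every probe set that the array annotation pairs with that symbol alone. This gave 44 probe sets of the 31042 tested, 22 for the 17 pump genes and 22 for 16 lysosome genes. Npc1 is not analysed here. A further 1 probe set, listed under Atp6v0a2 and a second gene together, was left out.

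Kidney RNA came from 3 congenic S.LEW(10)x12x2x3x5 males, S rats in which segments of chromosome 10 come from the Lewis (LEW) strain, and from 3 S males, the inbred strain that serves as their control. The S rat develops salt-sensitive hypertension and protein in the urine. All 6 rats were born on 1 day, weaned at 30 days, fed a diet with 0.3% salt and killed at 53 days. Each cage held 1 congenic and 1 S rat, and each rat had its own Affymetrix array. The study concerns endosomal recycling and proteinuria. Values are log2 probe set intensities, so a difference of 1 is a doubling of the signal, and every difference is the congenic mean minus the S mean with its standard error (SE).

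The V-ATPase is a rotary machine that uses ATP to push protons into endosomes and lysosomes. Its peripheral V1 sector splits ATP and its membrane V0 sector carries the protons. In the proximal tubule the acid it makes releases filtered proteins from their receptors megalin and cubilin, and cathepsins and other hydrolases of the lysosome then break those proteins down. Many genes of both groups are known targets of the transcription factor TFEB and its relatives, which bind a short palindrome called the CLEAR element.

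In the congenic kidney several lysosomal proteases were higher, and the pump genes that passed did so at their weaker probe sets. Of the 22 lysosome probe sets 6 passed limma's test (adjusted p under 0.05 over all 31042 probe sets) and all 6 were higher, those of Ctsh, Lgmn, Psap, Ctsb, Ctsc and Ctsd. Of the 22 pump probe sets 3 passed, all higher, those of Atp6ap2, Atp6v1b2 and Atp6v0a2, and for each of these 3 genes the probe set with the stronger signal did not pass. These were 27.3% of the lysosome and 13.6% of the pump probe sets, against 6.00% of all 31042 tested, 3.47% higher and 2.53% lower. The median difference was 0.16 for the lysosome and 0.12 for the pump, beside -0.02 for all probe sets. The counts rested on single rats: without S rat 1 there were 8 lysosome and 7 pump calls, without S rat 2 there were 4 and 1, without congenic rat 1 there were 1 and 0, and without S rat 3, congenic rat 2 or congenic rat 3 there were none in either list.

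The arrays also differed in a control measure. Affymetrix arrays carry separate controls at the 3′ end and the 5′ end of beta-actin and of Gapdh, and the gap between them widens with degraded RNA or incomplete labelling. Averaged over both transcripts, the gap was 1.26, 1.01 and 1.08 in congenic rats 1, 2 and 3, against 1.56, 2.10 and 1.70 in S rats 1, 2 and 3 (log2). The groups did not overlap, and the difference of -0.67 had a two-sided exact permutation p of 0.1, which is the lowest a design of 3 against 3 can give. The widest gap was that of S rat 2, whose array had the lowest correlations with the congenic arrays, 0.985 to 0.988 over all probe sets. The medians of the 6 arrays ran from 7.474 to 7.505. For values "with the 3′ minus 5′ term", this measure of each array was added to limma's model. The term itself differs between the groups, and with it the SE was wider for all 44 member probe sets. With it 0 of the 31042 probe sets passed, and 2292 had an unadjusted p under 0.05, in place of 7895 without it.

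Proteases accounted for 5 of the 6 lysosome probe sets that passed. Ctsh encodes cathepsin H, an aminopeptidase of the lysosome. Its probe set stood at 13.47, 13.33 and 13.50 in congenic rats 1, 2 and 3, against 12.89, 12.63 and 12.73 in S rats 1, 2 and 3. All 3 congenic rats lay above all S rats, and the means differed by 0.69 ± 0.09 (SE), which is 1.61-fold (95% interval 1.40 to 1.84, adjusted p = 0.0163, limma). With the 3′ minus 5′ term the difference was 0.51 ± 0.17 (SE, unadjusted p = 0.0166, adjusted p = 0.56).

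Lgmn encodes legumain, the asparaginyl endopeptidase that trims cathepsins and cuts endocytosed proteins. Its stronger probe set read 12.86, 12.76 and 12.89 in congenic rats 1, 2 and 3 and 12.50, 12.35 and 12.36 in S rats 1, 2 and 3. The groups did not overlap, and the means differed by 0.43 ± 0.07 (SE, 1.35-fold, adjusted p = 0.0235, limma). Its second probe set, at a mean near 6 and close to the lower quartile of the arrays, differed by 0.26 ± 0.11 with overlap between the groups (adjusted p = 0.195). With the 3′ minus 5′ term the stronger probe set of Lgmn was at 0.35 ± 0.15 (SE).

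Ctsb encodes cathepsin B, a cysteine protease abundant in the proximal tubule. It measured 13.31, 13.16 and 13.25 in congenic rats 1, 2 and 3, against 12.97, 12.80 and 12.78 in S rats 1, 2 and 3. The difference of 0.39 ± 0.08 (SE, 1.31-fold) passed at adjusted p = 0.0332, and it was 0.33 ± 0.16 with the 3′ minus 5′ term. Psap encodes prosaposin, which is cut into the saposins that help hydrolases reach sphingolipids. Its probe set stood at 11.80, 11.77 and 11.86 in congenic rats 1, 2 and 3, against 11.54, 11.35 and 11.36 in S rats 1, 2 and 3. S rat 1 was the highest S rat for both genes and lay below every congenic rat. Psap differed by 0.39 ± 0.07 (SE, 1.31-fold, adjusted p = 0.0301, limma), and by 0.24 ± 0.14 with the term.

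The probe sets of Ctsc and Ctsd behaved differently within the S group. Ctsc encodes cathepsin C, the dipeptidyl peptidase that activates serine proteases of immune cells. The probe set that passed read 11.29, 11.22 and 11.40 in congenic rats 1, 2 and 3, against 10.81, 9.55 and 10.09 in S rats 1, 2 and 3. The congenic rats lay close together and the S rats were spread over more than a doubling of signal, with S rat 2 lowest and S rat 1 nearest to the congenic rats. The difference was 1.15 ± 0.26 (SE, 2.22-fold, 95% interval 1.47 to 3.35, adjusted p = 0.0426, limma), and -0.01 ± 0.34 with the 3′ minus 5′ term. The second probe set of Ctsc, which has a slightly stronger signal, stood at 11.50, 11.35 and 11.45 in congenic rats 1, 2 and 3 and at 11.27, 10.56 and 10.84 in S rats 1, 2 and 3. The groups did not overlap, and the difference of 0.54 ± 0.16 (SE) did not pass (adjusted p = 0.0734).

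Ctsd encodes cathepsin D, the main aspartic protease of the lysosome. Its values were 13.11, 13.16 and 13.14 in congenic rats 1, 2 and 3, against 12.78, 11.83 and 12.30 in S rats 1, 2 and 3. The order of the S rats was again 1, 3, 2, the reverse of their order by the 3′ minus 5′ difference. Ctsd differed by 0.83 ± 0.20 (SE, 1.78-fold, adjusted p = 0.0463, limma), and by -0.08 ± 0.22 with the term. Ctsh, Lgmn, Psap and both probe sets of Ctsc had the same order among S rats, and Ctsb did not. This order was found in 7 of the 22 lysosome probe sets, 12 of the 22 pump probe sets and 18.9% of all tested probe sets. The part of labelling or RNA integrity in the differences was not tested beyond the model with the term.

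**Figure D1:**
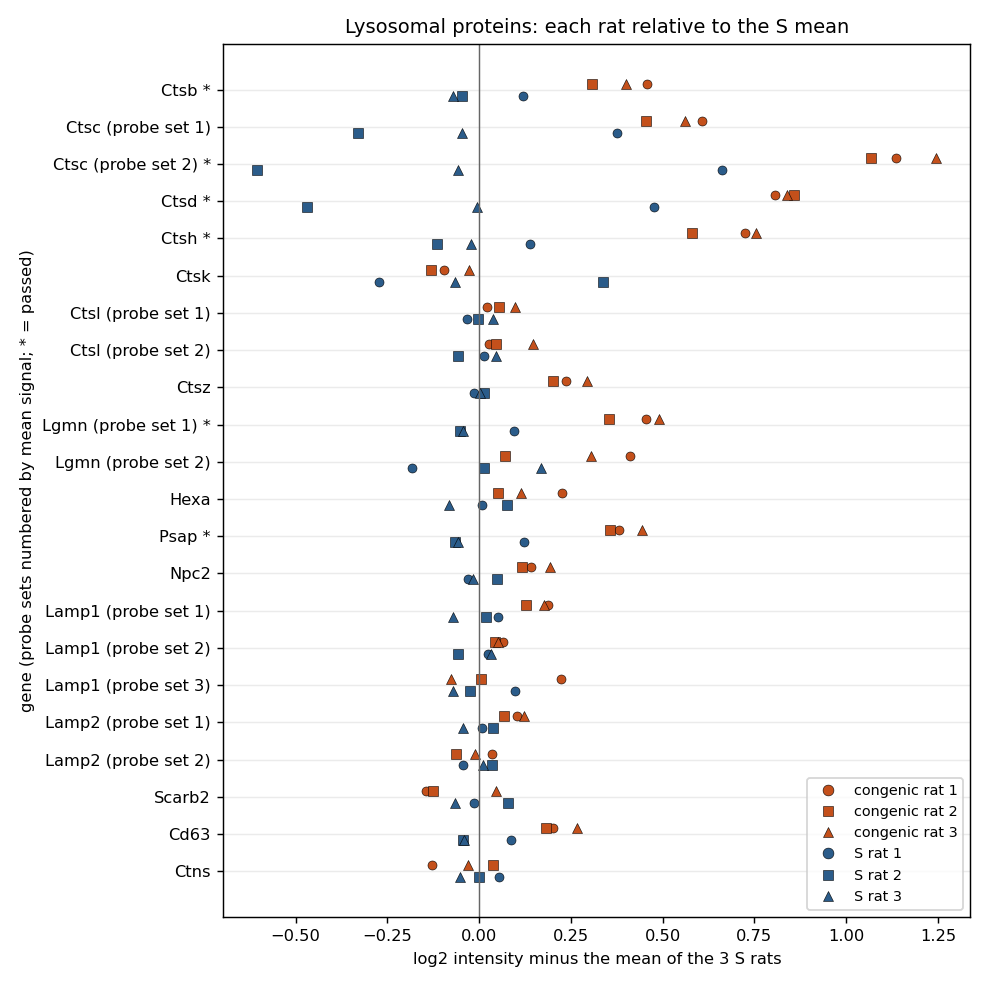
Log2 intensity of each rat minus the mean of the 3 S rats, for the 22 lysosome probe sets (rows, grouped as proteases, other lumenal proteins and membrane proteins). Circles, squares and triangles are rats 1, 2 and 3, orange for congenic and blue for S, and an asterisk marks an adjusted p under 0.05. The congenic rats lie to the right of all S rats for Ctsh, the stronger Lgmn probe set (probe set 1), Ctsb and Psap, while at the weaker Lgmn probe set the groups overlap. For Ctsc and Ctsd the S rats are spread widely.

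Among proteases that did not pass, Ctsz was the nearest. Ctsz encodes cathepsin Z, a carboxypeptidase of lysosomes and of macrophages. It stood at 9.40, 9.36 and 9.45 in congenic rats 1, 2 and 3 and at 9.15, 9.17 and 9.16 in S rats 1, 2 and 3, and the groups were apart. The difference of 0.24 ± 0.06 (SE) had an adjusted p of 0.0535 (limma), and was 0.28 ± 0.12 with the 3′ minus 5′ term. Ctsl, which encodes cathepsin L, an endopeptidase, differed by 0.06 ± 0.06 and 0.07 ± 0.07 (SE) at its 2 probe sets (adjusted p = 0.62 and adjusted p = 0.56), with 95% intervals of -0.08 to 0.20 and -0.08 to 0.23. Ctsk encodes cathepsin K, a collagen-degrading protease known from osteoclasts. It was at 9.40, 9.37 and 9.47 in congenic rats 1, 2 and 3, against 9.23, 9.84 and 9.43 in S rats 1, 2 and 3. Ctsk was highest in S rat 2, and its difference of -0.09 ± 0.14 (SE, adjusted p = 0.76) was 0.53 ± 0.17 with the term (unadjusted p = 0.0144, adjusted p = 0.55).

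None of the probe sets for membrane proteins of the lysosome passed. Cd63, a tetraspanin of late endosomes, read 13.56, 13.55 and 13.63 in congenic rats 1, 2 and 3 and 13.45, 13.32 and 13.32 in S rats 1, 2 and 3. The groups did not overlap, and the means differed by 0.22 ± 0.07 (SE, adjusted p = 0.0907, limma). Lamp1, a heavily glycosylated coat protein of the lysosomal membrane, stood at 12.96, 12.90 and 12.95 in congenic rats 1, 2 and 3, against 12.83, 12.79 and 12.70 in S rats 1, 2 and 3. Here too the groups did not overlap, and the means differed by 0.16 ± 0.06 (adjusted p = 0.16), while the other 2 probe sets of Lamp1, with means near 5, differed by 0.05 each. Lamp2, its relative, which also serves autophagy, differed by 0.10 ± 0.06 and -0.01 ± 0.06 at its 2 probe sets. Scarb2, the receptor that carries glucocerebrosidase to lysosomes, was at -0.08 ± 0.08 and Ctns, the cystine exporter whose loss causes cystinosis, at -0.04 ± 0.07 (SE). The 95% interval of Ctns ran from -0.20 to 0.12 and that of Scarb2 from -0.25 to 0.10.

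The remaining lumenal proteins also missed the threshold. Npc2, which binds cholesterol in the lysosome, was at 12.23, 12.20 and 12.28 in congenic rats 1, 2 and 3 and at 12.05, 12.13 and 12.07 in S rats 1, 2 and 3. The groups did not overlap, and the difference of 0.15 ± 0.06 (SE) had an adjusted p of 0.18. Hexa, the alpha subunit of beta-hexosaminidase, differed by 0.13 ± 0.08 with overlap (adjusted p = 0.33), and by 0.32 ± 0.14 with the 3′ minus 5′ term. In all, 13 of the 22 lysosome probe sets had every congenic rat above every S rat and 0 the reverse. Of all tested probe sets 31.2% had the groups apart, 12.7% with congenic rats higher and 18.4% with them lower. The term left the lysosome median at 0.13, beside 0.16 without it.

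In the pump the probe sets that passed were each 1 of 2 for their gene. Atp6ap2 encodes the accessory subunit also known as the prorenin receptor. Its weaker probe set stood at 10.61, 10.58 and 10.68 in congenic rats 1, 2 and 3, against 10.06, 9.03 and 9.43 in S rats 1, 2 and 3, a difference of 1.12 ± 0.21 (SE, 2.17-fold, 95% interval 1.54 to 3.04, adjusted p = 0.0315, limma). The congenic rats lay within about 0.1 of each other, and the S rats were spread over a unit of log2 with S rat 2 lowest. The stronger probe set of the same gene stood at 12.32, 12.23 and 12.27 in congenic rats 1, 2 and 3 and at 12.21, 12.22 and 12.21 in S rats 1, 2 and 3. The 2 probe sets of Atp6ap2 therefore gave 1.12 and 0.06 ± 0.06 for 1 gene, and 0.18 ± 0.28 and 0.12 ± 0.12 with the 3′ minus 5′ term.

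Atp6v1b2 encodes the B2 subunit of V1, the form found in most cells, which with subunit A makes the ring that splits ATP. Its weaker probe set read 10.71, 10.92 and 10.98 in congenic rats 1, 2 and 3, against 10.43, 9.23 and 9.71 in S rats 1, 2 and 3. All congenic rats were above S rat 1, the highest S rat, and the difference was 1.08 ± 0.25 (SE, 2.12-fold, adjusted p = 0.0449, limma). At the stronger probe set the values were 11.62, 11.58 and 11.65 in congenic rats 1, 2 and 3 and 11.59, 11.41 and 11.35 in S rats 1, 2 and 3. There the groups overlapped and the difference was 0.17 ± 0.08 (adjusted p = 0.21). With the term the probe sets stood at -0.13 ± 0.26 and 0.06 ± 0.16.

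Atp6v0a2 encodes a form of the V0 subunit a, the stator of the pump, that is used in Golgi and endosomes. Its weaker probe set was at 7.73, 7.79 and 7.94 in congenic rats 1, 2 and 3, against 7.59, 7.30 and 7.27 in S rats 1, 2 and 3. It differed by 0.43 ± 0.10 (SE, 1.35-fold, adjusted p = 0.0456, limma), and by 0.15 ± 0.19 with the term. Its stronger probe set differed by -0.02 ± 0.08 with overlap (adjusted p = 0.91). Atp6v1a, the catalytic A subunit, showed the same split without passing. Its weaker probe set read 10.34, 10.40 and 10.44 in congenic rats 1, 2 and 3 and 10.25, 9.40 and 9.75 in S rats 1, 2 and 3 (0.59 ± 0.18, adjusted p = 0.0839), and its stronger one differed by 0.11 ± 0.07.

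Measured within each rat, the gap between the 2 probe sets of Atp6ap2 and of Atp6v1b2 was wider in every S rat than in any congenic rat. For Atp6ap2 the stronger minus the weaker probe set was 1.71, 1.65 and 1.59 in congenic rats 1, 2 and 3, against 2.15, 3.19 and 2.78 in S rats 1, 2 and 3. For Atp6v1b2 the gap was 0.91, 0.66 and 0.67 in congenic rats and 1.16, 2.18 and 1.64 in S rats, in the same order of rats. In both genes the gap of the S rats followed their 3′ minus 5′ difference, smallest in S rat 1 and largest in S rat 2. Every S rat also had a wider gap than any congenic rat for Ctsc (mean 0.13 in congenic, 0.74 in S). The same held for Atp6v0a2 (0.72 in congenic, 1.17 in S) and for Atp6v1a (1.71 in congenic, 2.19 in S). For Atp6v0b the gap was wider in S on average, with overlap (3.53 in congenic, 3.69 in S). For Ctsl it was 0.98 in congenic and 0.99 in S rats. In each of these further genes too the gap was smallest in S rat 1 and largest in S rat 2 among S rats. The gap was wider in congenic rats for Lgmn (6.78 in congenic, 6.61 in S), for Lamp2 (1.10 in congenic, 0.98 in S) and for both pairs of Lamp1 (7.79 and 7.86 in congenic, 7.68 and 7.75 in S). These gaps were not tested. Which transcript forms each probe set reads was not analysed here.

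**Figure D2:**
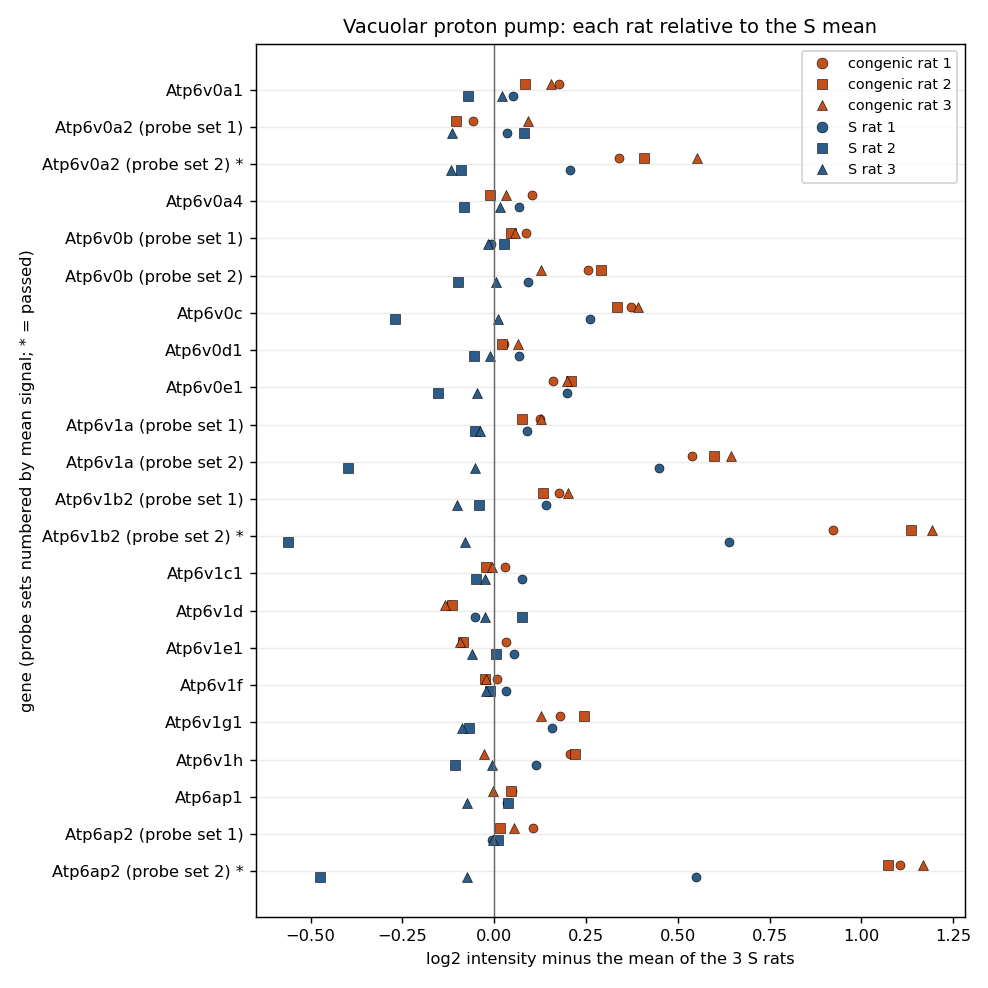
Log2 intensity of each rat minus the mean of the 3 S rats, for the 22 pump probe sets (rows, V0 subunits above V1 subunits above accessory subunits). Symbols are as in the plot of lysosome probe sets. The weaker probe sets of Atp6ap2, Atp6v1b2 and Atp6v1a spread the S rats widely, with S rat 2 far to the left, and the stronger probe sets of the same genes lie near 0.

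The proton channel of V0 was next. Atp6v0c encodes the proteolipid c whose ring carries the protons, and it was at 13.46, 13.42 and 13.48 in congenic rats 1, 2 and 3, against 13.34, 12.81 and 13.09 in S rats 1, 2 and 3. Congenic rats were all higher, and the difference in means was 0.37 ± 0.12 (SE), which did not pass (adjusted p = 0.10, limma) and was -0.13 ± 0.17 with the 3′ minus 5′ term. Atp6v0b encodes the related proteolipid c″. Its weaker probe set stood at 7.93, 7.97 and 7.81 in congenic rats 1, 2 and 3 and at 7.77, 7.58 and 7.68 in S rats 1, 2 and 3. It differed by 0.22 ± 0.08 (adjusted p = 0.11), and the stronger one by 0.06 ± 0.06. Atp6v1g1, a stalk subunit of V1, read 10.00, 10.07 and 9.95 in congenic rats 1, 2 and 3, against 9.98, 9.75 and 9.73 in S rats 1, 2 and 3, with overlap (0.18 ± 0.08, adjusted p = 0.21).

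No probe set of the other pump genes passed. Atp6v0e1, a small V0 subunit, was at 0.19 ± 0.09 and Atp6v0a1, the a1 form of the stator, at 0.14 ± 0.07 (SE, adjusted p = 0.25 and adjusted p = 0.24). Atp6v1h, a regulatory subunit of V1, stood at 0.13 ± 0.09. Atp6v0a4, the form of the a subunit known from intercalated cells, stood at 0.04 ± 0.07 and Atp6v0d1, which joins the rotor to V1, at 0.04 ± 0.06, with 95% intervals of -0.12 to 0.20 and -0.11 to 0.18. Atp6ap1, an accessory subunit needed for assembly, was at 0.03 ± 0.06, and the V1 subunits Atp6v1c1, Atp6v1f and Atp6v1e1 lay between -0.05 and 0.00. Atp6v1d, the central rotor stalk, was the only pump probe set with every congenic rat below every S rat, at 12.09, 12.10 and 12.08 in congenic rats 1, 2 and 3 against 12.16, 12.29 and 12.19 in S rats 1, 2 and 3. Its difference was -0.12 ± 0.06 (adjusted p = 0.28), and 0.01 ± 0.12 with the term. A further 9 of the 22 pump probe sets had the groups apart with congenic rats higher. Of all tested probe sets 12.7% had the groups apart with congenic rats higher and 18.4% with them lower. With the 3′ minus 5′ term the pump median was 0.00, beside 0.12 without it.

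Of the members, 4 genes lie on chromosome 10, the chromosome of the introgressed segments, in the RefSeq annotation of GRCr8. They are Atp6v0a1, Atp6v0c, Atp6v0e1 and Ctns, and none passed. The limits of the LEW segments were not placed here, so whether any of the 4 lies inside was not analysed. The 9 probe sets that passed belong to genes on chromosomes 1, 6, 8, 12, 15, 16, 20 and X.

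**Figure D3:**
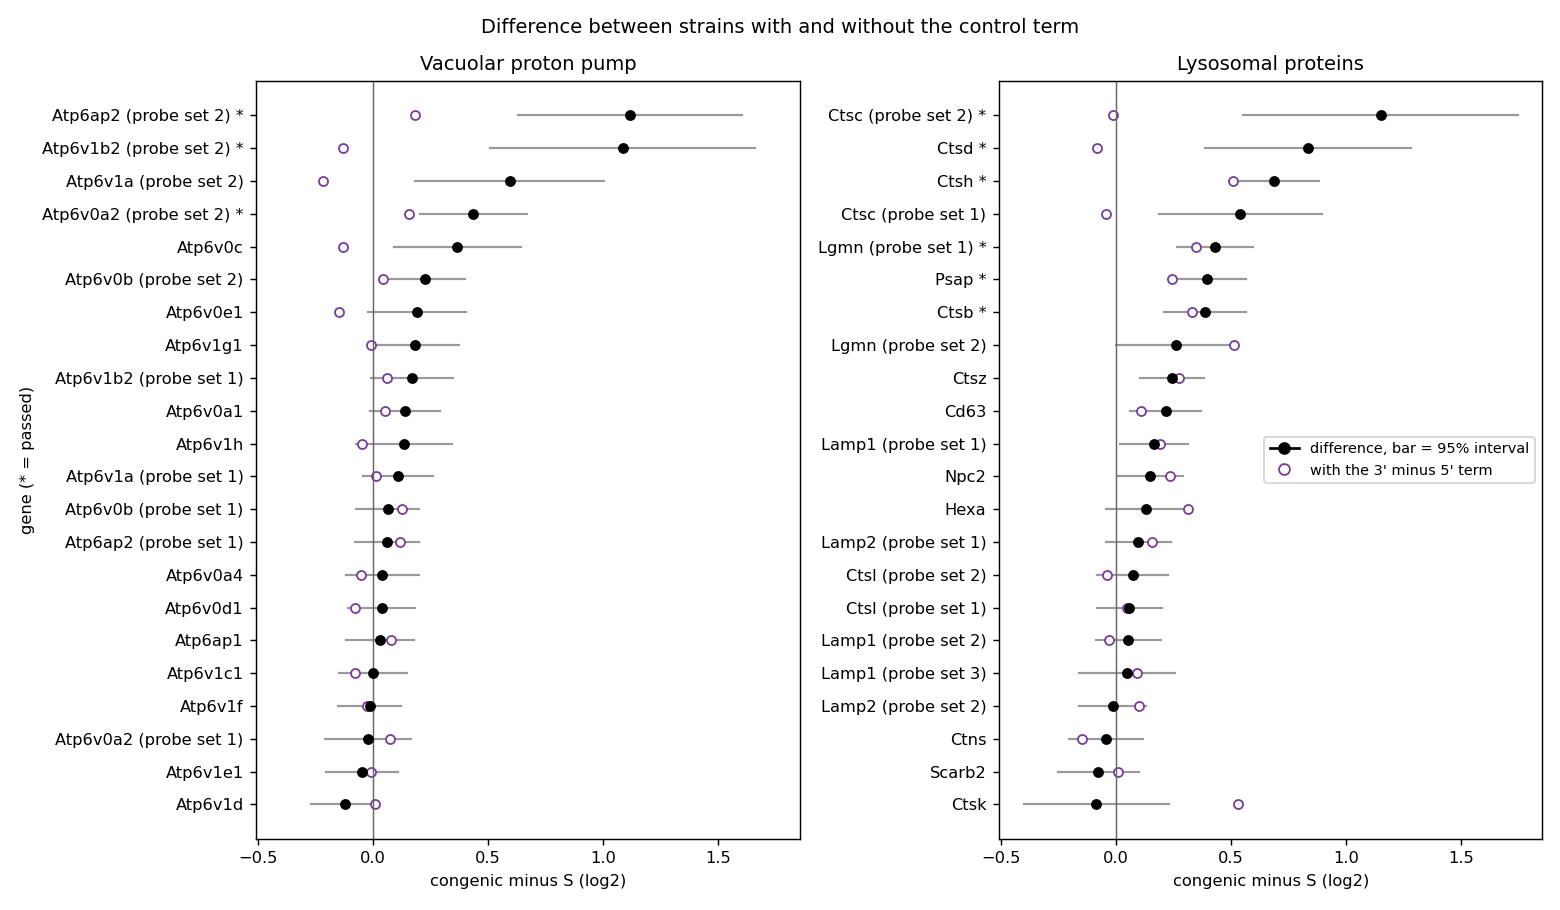
Congenic minus S difference (log2) of each pump probe set (left) and lysosome probe set (right), ordered by size. Black points are limma's estimates with bars for the 95% interval, and open purple points are the estimates with the 3′ minus 5′ term. The purple points of both Ctsc probe sets, of Ctsd and of the weaker probe sets (probe set 2) of Atp6v1b2 and Atp6v1a fall below 0, and those of Ctsh, the stronger Lgmn probe set and Ctsb stand at 0.51, 0.35 and 0.33.

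**Figure D4:**
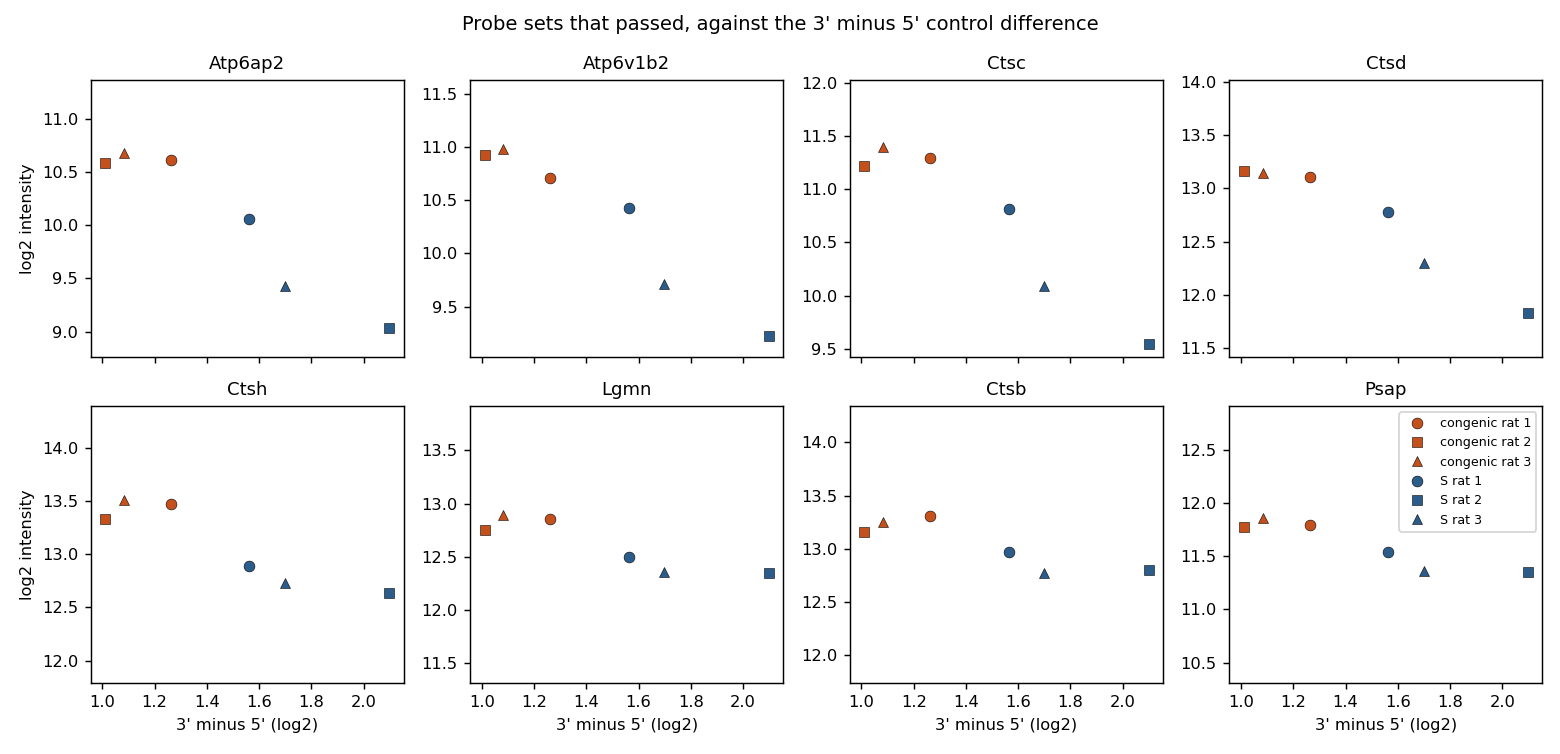
Log2 intensity (vertical axis, each panel spanning the same range) of 8 probe sets that passed, against the 3′ minus 5′ control difference of the array (horizontal axis, log2). Congenic rats (orange) lie on the left in every panel. In the panels of Atp6ap2, Atp6v1b2, Ctsc and Ctsd the S rats (blue) step down as the control difference widens, and in those of Lgmn, Ctsb and Psap S rats 2 and 3 lie almost level.

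The promoters of the members were searched for the CLEAR element, on both strands, in the window of 250 bases before to 50 bases after each gene start. RefSeq windows on GRCr8 were matched for 28 of the 34 members. Ctsb, Psap and Atp6v1b2, which passed, and Hexa, Atp6v1h and Atp6v1c1 had no window and were not searched. The 8-letter core TCACGTGA was found in 4 of the 28 (14.3%), against 260 of 33469 windows in the table (0.777%). The 10-letter form of the element, which is this core with a G before it and a C after it, was in 0 of 28 and in 0.233% of all windows, and the shorter CACGTG inside the core was in 5 of 28 and in 6.42%. The 4 members with the core were Ctsd, Lamp1, Atp6v0d1 and Atp6v0e1, of which Ctsd passed and 3 did not. Of the members that passed, 6 had a window, and 1 of these held the core. The 120 bases before the start are shown for 3 of them and for Ctsh, which had the smallest p of the members and has no match in its window. Capitals mark the core.
Ctsd, chr1:206968822-206968941, minus strand: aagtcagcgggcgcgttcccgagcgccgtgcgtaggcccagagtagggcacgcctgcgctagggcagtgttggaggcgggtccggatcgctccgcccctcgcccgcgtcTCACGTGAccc
Lamp1, chr16:83075064-83075183, minus strand: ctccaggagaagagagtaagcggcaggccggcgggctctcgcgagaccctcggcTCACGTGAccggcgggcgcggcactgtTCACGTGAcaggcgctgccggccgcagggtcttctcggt
Atp6v0d1, chr19:50357249-50357368, minus strand: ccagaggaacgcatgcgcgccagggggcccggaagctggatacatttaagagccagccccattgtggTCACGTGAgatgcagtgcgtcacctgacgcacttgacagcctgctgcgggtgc
Ctsh, chr8:99488636-99488755, plus strand: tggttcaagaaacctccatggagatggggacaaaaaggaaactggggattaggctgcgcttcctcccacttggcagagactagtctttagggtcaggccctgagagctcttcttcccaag

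The core starts 11 bases before the start of Ctsd, 66 and 39 bases before that of Lamp1 and 53 bases before that of Atp6v0d1. Atp6v0d1 differed by 0.04 and Lamp1 by 0.16 at its stronger probe set, and neither passed. A match of letters is no evidence of binding. Among 10 regulators of this program, measured by 18 probe sets, 1 passed (5.56%), a share near the 6.00% of all tested probe sets. Tfec, a relative of TFEB, was lower in congenic rats (9.64, 9.47 and 9.55 in congenic rats 1, 2 and 3, against 9.88, 10.10 and 9.87 in S rats 1, 2 and 3, a difference of -0.40 ± 0.09 SE, adjusted p = 0.0379, limma). Tfe3 was at 0.27 (adjusted p = 0.0503) and Mitf at -0.28 (adjusted p = 0.0507). With the 3′ minus 5′ term these were -0.07 for Tfec, 0.29 for Tfe3 and -0.09 for Mitf. Other probe sets of these genes did not pass, at 0.17 for Tfec, 0.12 and -0.07 for Tfe3 and -0.28 for Mitf. The Tfe3 probe set at -0.07 is its brightest, with a mean of 9.52, against 6.51 for the one at 0.27. Tfeb itself was at -0.11 ± 0.07 (SE) with overlap between the groups (adjusted p = 0.36, limma).

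Other lysosomal hydrolases also included genes that were higher. Of 41 probe sets for 32 such genes 7 passed (17.1%, against 6.00% of all tested), all higher in congenic rats. The other 34 did not, and the median difference of the list was 0.10. Asah1, acid ceramidase, rose by 0.81 ± 0.12 (SE, adjusted p = 0.0200, limma). Ctsa, the protective protein that stabilises beta-galactosidase and neuraminidase, rose by 0.49 ± 0.09 (adjusted p = 0.0282), and Scpep1, a serine carboxypeptidase, by 0.40 ± 0.07 (adjusted p = 0.0258). Gaa, acid alpha-glucosidase, rose by 0.74 ± 0.15. With the 3′ minus 5′ term Scpep1 was at 0.43 and Ctsa at 0.40, while Asah1 was at 0.30 and Gaa at 0.02. At the probe set with the stronger signal Asah1 was at -0.03 and Gaa at 0.08, and neither passed.

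Of 22 probe sets for other lysosomal membrane proteins 2 rose (9.09%) and 20 did not pass. Of all tested probe sets 6.00% passed, 3.47% higher. The median of this list was 0.01, with 12 differences positive and 10 negative. Laptm4a rose by 0.78 ± 0.13 and the chloride-proton exchanger Clcn7 by 0.45 ± 0.10 (SE, adjusted p = 0.0224 and adjusted p = 0.0369). With the 3′ minus 5′ term 0 of these 22 probe sets had an unadjusted p under 0.05 (limma). Of 30 probe sets for delivery to the lysosome 4 rose (13.3%, against 3.47% of all tested), and the list median was -0.06. They were those of Gga2, a sorting adaptor (1.19 ± 0.15), Vps41, a tethering subunit (0.81 ± 0.16), Gnptg, a subunit of the enzyme that makes the mannose 6-phosphate tag (0.38 ± 0.09), and Igf2r, a receptor for that tag (0.37 ± 0.09). With the term Gnptg was at 0.40, Gga2 at 0.50, Igf2r at 0.19 and Vps41 at 0.11. Further probe sets that did not pass stood at 0.06 for Gga2, where it is the brighter one, at 0.37 for Vps41 and at 0.49 for Igf2r.

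Pump genes outside the members passed at 1 of 8 probe sets for isoforms of restricted cell types (12.5%) and at 2 of 14 for assembly and regulation (14.3%), against 6.00% of all tested probe sets. Of the isoforms Atp6v1c2, a form of subunit C, fell by 0.39 (SE 0.07, adjusted p = 0.0256, limma), at 9.89, 9.74 and 9.80 in congenic rats 1, 2 and 3 against 10.25, 10.20 and 10.16 in S rats 1, 2 and 3. With the term it was at -0.34. Atp6v1b1, the B form of intercalated cells, was at 0.45 ± 0.18 (adjusted p = 0.155) and -0.30 with the term. The assembly and regulation probe sets that rose were those of Ncoa7, a pump-binding protein (0.52 ± 0.11, adjusted p = 0.0362), and Vma21, an assembly chaperone (0.66 ± 0.15, adjusted p = 0.0458). With the term these were at 0.19 and 0.07. The brighter probe set of Ncoa7 was at -0.10, and the other 2 of Vma21 were at 0.60 and 0.11, and none of the 3 passed.

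Some markers of macrophages and of fibroblasts were also higher in congenic rats. In whole-kidney RNA more cells of a type and more RNA per cell cannot be told apart. Of 17 macrophage probe sets for 15 genes 7 passed (41.2%, against 6.00% of all tested), all higher in congenic rats. Among them were Fcgr2b (0.75), C1qb (0.46) and Lyz2 (0.35). The other 10 did not pass, among them Cd68 (0.06), Adgre1 (0.13) and Csf1r (-0.04), each with overlap between the groups. Of the 17 differences 16 were positive and 1 was negative. The summed linear intensity of the 15 genes was 26993.9 to 29765.7 in congenic rats and 22376.4 to 25250.8 in S rats. This sum is weighted to the brightest genes, Cd74 and Lyz2, which both passed. Their mean log2 signals were 13.13 and 13.07, and the next was 10.32, that of Csf1r. With the 3′ minus 5′ term the median of the 17 macrophage probe sets was 0.45, beside 0.26 without it. Of 13 fibroblast probe sets 5 passed (38.5%), all higher, among them Lum (1.76) and Mfap4 (0.94). The other 8 did not pass, among them Pdgfra (0.01) and Col3a1 (0.23), and all 13 differences were positive. The summed intensity of the fibroblast genes was 31412.6 to 34257.1 in congenic rats against 22921.1 to 28214.2 in S rats. The median difference of the 13 probe sets was 0.30, and 0.58 with the term. The part of these cell types in the differences of Ctsh, Lgmn, Ctsb, Psap, Ctsc and Ctsd was not tested.

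The proximal tubule list had 7 of 18 probe sets that passed (38.9%, against 6.00% of all tested), all higher and from 5 genes. The list overlapped between the groups in summed intensity (133413 to 140729 in congenic rats, 126182 to 134643 in S rats). Its median difference was 0.37, and 0.10 with the 3′ minus 5′ term. Of 9 intercalated cell probe sets 2 passed (22.2%), 1 higher and 1 lower. The summed intensity of 8652.7 to 8968.6 in congenic rats lay within that of S rats (7146.4 to 10358.1). The median of these 9 was 0.21, and -0.37 with the term. The lowest mean among the markers used in these sums was that of Cd163, at 4.68, and no detection call was used.

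Which calls remained differed between the rats left out. Of the 6 lysosome calls, 4 remained without S rat 2, those of Ctsh, Lgmn, Ctsc and Ctsd, all 6 without S rat 1 (of 8 in all), and 1 without congenic rat 1, that of Ctsh. Without S rat 3, congenic rat 2 or congenic rat 3 none of the lysosome probe sets passed in limma, although 10, 11 and 8 had an unadjusted p under 0.05. Of the pump, 7 probe sets passed without S rat 1, 1 without S rat 2 (Atp6ap2) and 0 in each of the other 4 fits, where 5 or 6 had an unadjusted p under 0.05. Without S rat 2 the difference of Ctsh was 0.63, that of Atp6ap2 0.88, that of Ctsc 0.85 and that of Ctsd 0.60. Taking only the probe set with the strongest signal of each gene, 0 of 17 pump genes passed (2 with an unadjusted p under 0.05), and 4 of 16 lysosome genes, Ctsb, Ctsh, Lgmn and Psap.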

How the data were processed

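Affymetrix expression arrays measured total kidney RNA from 6 rats, 1 array per rat, per the labels. The deposited table holds log2 intensities on a common scale, and how they were made is not given in the sources used here. Groups and rat numbers came from the sample titles. Of 31099 probe sets 57 Affymetrix controls were left out. The annotation gave 1 symbol to 20826 of the 31042 tested, several to 436, and did not list 9780. Symbols were updated by Entrez identifier to RefSeq GRCr8. For the comparison of the strains, limma (version 3.58.1, under R version 4.3.3) was fitted with lmFit and eBayes (two-sided, Benjamini-Hochberg over all tested probe sets, 4 residual degrees of freedom and 8.49 with the prior). The fit was checked on simulated data. No pair of arrays was identical. Arrays have no read depth, and 3 rats per group limit the precision. No source says how RNA handling was batched.

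Members, lists and alternatives were chosen with earlier results of these data known. The text names every member. It gives in full each probe set that passed and the 5 pump and 5 lysosome ones with the smallest p among the rest, and it names up to 4 genes of each other list. Ctsk and Atp6v1d were given in full after their values were seen. Cd163, Cd74, Cd68, Adgre1, Csf1r, Pdgfra and Col3a1 were likewise named after their values were seen, outside the limit for other lists. Alternatives covered normalization, filtering, moderation, weights on arrays, a replicate block, dropping each rat in turn, the 3′ minus 5′ term and 1 probe set per gene. Plots used Python 3.11.15 and matplotlib 3.10.9.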

Additional observations from a re-analysis of the deposited data

How the results depend on the processing

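Main counts were 1862 for all probe sets, 3 for the pump and 6 for the lysosome. An unmoderated test called 0, 0 and 0, with 6166, 7 and 11 at an unadjusted p under 0.05. Array weights called 6077, 6 and 10. The replicate block (rat number) called 658, 1 and 3, and deviations of same-numbered rats correlated at -0.01, -0.18 and -0.14, so the numbers were not taken as pairs. The sample titles do not say which rats shared a cage, so the main fit ignores cage. The check on rat numbers cannot show whether cage mates were alike. The 3′ minus 5′ term called 0, 0 and 0, with 2292, 0 and 3 at an unadjusted p under 0.05. Taking 1 probe set per gene left 0 for the pump. Leaving out 1 rat gave 0 to 4752 for all probe sets, 0 to 7 for the pump and 0 to 8 for the lysosome in limma, each with fewer samples. The causes of the other shifts were not tested. Quantile normalization, median centring, the filter below percentile 40 of mean signal, an intensity trend and robust eBayes stayed within 1.5 times of all 3 counts. The genes called still changed. Quantile normalization lost Atp6v1b2 and Ctsd and gained Ctsz, and robust eBayes lost Atp6v1b2, Ctsc and Ctsd. Median centring, the filter and the intensity trend kept every member call of the main fit. The 3′ minus 5′ difference ran from -0.78 to -0.51 with 1 rat left out. Of the 19 probe sets chosen for full values by passing or by smallest p, 7 changed sign with the 3′ minus 5′ term. None of these 19 changed sign under any other alternative. The values with the term were -0.13 for Atp6v1b2, -0.22 for Atp6v1a, -0.13 for Atp6v0c and -0.0085 for Atp6v1g1. They were -0.011 and -0.043 for the weaker and stronger probe set of Ctsc and -0.082 for Ctsd. Ctsk and Atp6v1d, given in full outside this choice, also changed sign with the term, to 0.53 and 0.0088. Ctsk changed sign without S rat 2 as well, to 0.08. Dim probe sets, such as the second of Lgmn, limit what the arrays can show.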
